A study of Mus musculus with 6 samples.

Results

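The genes described here are 7 that carry out or direct antigen presentation by MHC class II: the chain genes H2-Aa, H2-Ab1 and H2-Eb1, the invariant chain gene Cd74, the peptide exchange genes H2-DMa and H2-DMb1, and the transactivator gene Ciita. They were chosen by symbol from the 15139 rows of an expression table of mouse bone marrow cells, and all 7 were found. Messenger RNA had been sequenced after 1 week in IL3 at 10 ng/ml and SCF (stem cell factor) at 50 ng/ml, a pair of cytokines under which marrow gives rise to mast cells, basophils and other myeloid cells. The medium of all samples held 10% FBS (fetal bovine serum). The knockout (KO) group carried MxCre with Dnmt3a-/- and was measured in 2 libraries, replicates 2 and 3. The wild-type (WT) group carried MxCre with Dnmt3a+/+ and was measured in 3 libraries, replicates 1, 2 and 3. MxCre is a recombinase under the interferon-inducible Mx1 promoter, used to delete genes in blood-forming cells, and Dnmt3a is a de novo DNA methyltransferase. No value of KO replicate 1 is used. Age, strain and sex are not in the labels, nor is it said whether replicates came from separate animals. The p-values thus measure only how far these libraries spread, which may be technical among libraries of 1 sex and genotype.

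Class II molecules are pairs of an alpha and a beta chain that show peptides from endosomes to CD4 T cells. The invariant chain fills the peptide groove and guides the pair to endosomes, where proteases trim it and the DM molecule exchanges the last fragment for antigenic peptide. Ciita is a co-activator that does not bind DNA itself: it is recruited by factors sitting on short promoter boxes of class II genes, and its own level is known to set class II expression. In marrow-derived myeloid cells, class II is best known from dendritic cells and activated macrophages.

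Levels are FPKM, fragment counts scaled to transcript length and to all mapped fragments of the library. They can be compared between genes, but the read depth behind them is unknown. Each library had 11038 to 11090 genes at 1 FPKM or more, and its values added up to 560387 to 604368 FPKM. Dnmt3a itself had 2.58 and 3.42 FPKM in KO libraries, against 6.68, 9.99 and 9.04 FPKM in WT libraries (log2 change -1.25 ± 0.17, SE; limma adjusted p = 0.00279). The libraries also differed by sex. Xist lay between 0 and 0.02 FPKM in both KO libraries, 0 in WT replicate 1, and 14.4 and 15.3 FPKM in WT replicates 2 and 3. With sex as a covariate, the change therefore rests on the KO libraries against WT replicate 1 alone.

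All 7 class II genes fell in KO cells, and both KO libraries lay below all 3 WT libraries for each of them. Changes were tested with limma on log2(FPKM + 1) and adjusted over all 11365 tested genes at a threshold of 0.05. Of those genes, 13.0% were called lower and 9.08% higher in KO cells (1475 and 1032 genes, or 1138 and 1256 with upper-quartile scaling). Both KO libraries lay below every WT library for 30.8% of tested genes. Without WT replicate 2 there were 944 genes called lower and 679 called higher, and 681 were called higher without KO replicate 3. All 7 genes passed the filter on low values, Ciita through the WT libraries alone, so that it could pass only where it differed. Ordered from the most lowered of the 11365 tested genes, H2-Aa was at place 1, H2-Eb1 at 3, Cd74 at 4, H2-Ab1 at 5, H2-DMa at 18, Ciita at 70 and H2-DMb1 at 84. The median log2 change of the 7 was -2.98, beside -0.04 over all tested genes. It was -3.47 without KO replicate 2 and -2.45 without KO replicate 3. In whole cultures, fewer cells of a type and less RNA per cell cannot be told apart.

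**Figure D1:**
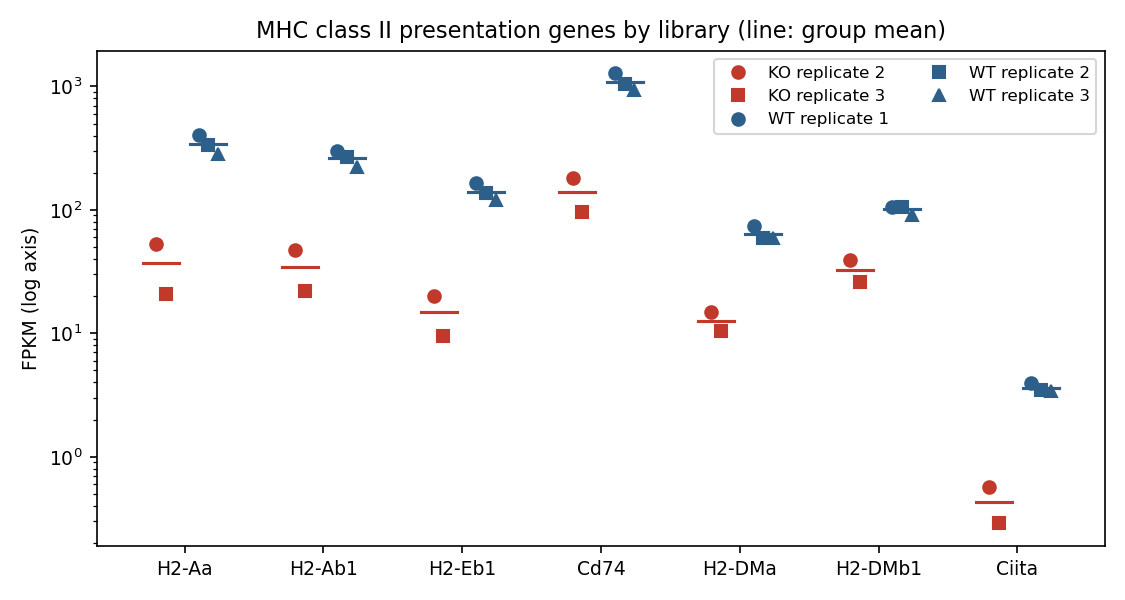
FPKM of the 7 class II presentation genes (log axis) in KO replicates 2 and 3 (red) and WT replicates 1 to 3 (blue), each point a library and each line a group mean. For every gene both KO points lie below all WT points, and KO replicate 3 lies below KO replicate 2.

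The classical chains fell in KO cells to between 10.5% and 13.1% of their WT means. H2-Aa (gene 14960), the alpha chain of the A molecule, lies on the minus strand of chromosome 17 from 34282744 to 34287823 in GRCm38.p6. It had 53.2 and 20.9 FPKM in KO replicates 2 and 3, against 402, 334 and 286 FPKM in WT replicates 1, 2 and 3. The highest KO library was thus well below the lowest WT library. The mean was 37.0 ± 22.8 FPKM in KO cells (SD, n = 2) and 341 ± 58.5 FPKM in WT cells (SD, n = 3), which puts KO at 10.9% of WT (log2 change -3.30 ± 0.34, SE; limma adjusted p = 0.000881). H2-Ab1 (gene 14961) encodes the beta chain that pairs with H2-Aa and lies at 34263227 to 34269418 on the plus strand. H2-Ab1 had 46.9 and 21.97 FPKM in KO libraries, against 302, 266 and 221 FPKM in WT libraries. Again the groups did not overlap, and the KO mean was 13.1% of the WT mean (log2 change -2.98 ± 0.29; limma adjusted p = 0.000676).

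H2-Eb1 (gene 14969), the beta chain of the E molecule, lies at 34305867 to 34316674 on the plus strand. Its levels were 20.02 and 9.49 FPKM in KO libraries, against 164, 138 and 121 FPKM in WT libraries. The 2 KO libraries were both low, and the KO mean was 10.5% of the WT mean (log2 change -3.24 ± 0.27; limma adjusted p = 0.00045). An annotated antisense gene, Gm20513, overlaps H2-Eb1, and the sources used here do not state if counting was by strand. The partner of H2-Eb1 is the E alpha chain, which some mouse strains do not make. H2-Ea-ps was not analysed here.

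Cd74 (gene 16149, chromosome 18 from 60803849 to 60812652), the invariant chain, was the most abundant of the 7 transcripts in every library. It had 181 and 95.9 FPKM in KO libraries, against 1277, 1046 and 930 FPKM in WT libraries. Within the table this placed it at ranks 470 and 819 of all rows in KO libraries, against ranks 74, 95 and 109 in WT libraries. The mean was 139 ± 60.4 FPKM in KO cells (SD, n = 2) and 1085 ± 177 FPKM in WT cells (SD, n = 3), so that KO was at 12.8% of WT (log2 change -3.02 ± 0.26; limma adjusted p = 0.000476).

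The peptide exchange chains fell by less. H2-DMa (gene 14998, chromosome 17 from 34119693 to 34139101), the alpha chain of DM, had 14.8 and 10.5 FPKM in KO libraries, against 74.5, 58.9 and 58.8 FPKM in WT libraries. The KO mean was 19.7% of the WT mean, and the groups did not overlap (log2 change -2.27 ± 0.16; limma adjusted p = 0.000326). H2-DMb1 (gene 14999, 34153191 to 34160229), the DM beta chain, had 39.0 and 26.3 FPKM in KO libraries, against 106, 105 and 91.4 FPKM in WT libraries. Here the KO mean was 32.4% of the WT mean, the highest share among the 7 genes (log2 change -1.62 ± 0.16; limma adjusted p = 0.000735). The annotation of H2-DMa overlaps Brd2 on the opposite strand, and H2-DMb1 has a close copy, H2-DMb2, with which reads may be shared.

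Ciita (gene 12265, chromosome 16 from 10480014 to 10531064) was the least abundant member. It had 0.57 and 0.29 FPKM in KO libraries, against 3.94, 3.47 and 3.38 FPKM in WT libraries. Both KO libraries were under 1 FPKM and all WT libraries above it, with a KO mean of 11.95% of the WT mean. The log2 change was -1.69 ± 0.14 (limma adjusted p = 0.000462) with 1 FPKM added to each value and -2.85 with 0.1 FPKM added, because the added value weighs most on low genes. On the linear scale the share left in KO cells lay between those of H2-Aa and Cd74. Dexi overlaps Ciita on the opposite strand.

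Beyond the difference between genotypes, the libraries of 1 genotype differed in a common direction. KO replicate 2 exceeded KO replicate 3 for each gene, by 1.42-fold for H2-DMa at the least and 2.54-fold for H2-Aa at the most. In the same way WT replicate 1 had the highest and WT replicate 3 the lowest level of all 7 genes. Summed over the 7 genes, FPKM came to 356 and 185 in KO replicates 2 and 3, against 2330, 1951 and 1711 in WT replicates 1, 2 and 3. These sums were 0.0589% and 0.0331% of all FPKM in KO libraries, against 0.386%, 0.333% and 0.292% in WT libraries. With sex as a covariate the log2 changes ran from -3.55 for H2-Aa to -1.70 for H2-DMb1, with adjusted p values up to 0.00574. Those changes compare the KO libraries with WT replicate 1, the highest WT library for all 7 genes, and assume that it varies like the other libraries, since no second WT library of that sex was measured. The authors' deposited table gives all 7 as lower in KO, with signed folds from -9.54 for H2-Eb1 to -3.09 for H2-DMb1 and adjusted p values from 3.69e-21 for Cd74 to 0.000641 for Ciita.

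The order of the 7 levels was the same in the 3 WT libraries: Cd74, H2-Aa, H2-Ab1, H2-Eb1, H2-DMb1, H2-DMa, Ciita. Of neighbours in that order, H2-Aa and H2-Ab1 overlapped across the WT libraries, and the other neighbours did not. The KO libraries kept Cd74 first and Ciita last but differed in between, with H2-Aa second in KO replicate 2 and H2-DMb1 second in KO replicate 3. In KO cells the ranges of H2-Aa, H2-Ab1 and H2-DMb1 overlapped, as did those of H2-Eb1 and H2-DMa.

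Ratios within a library show which of these transcripts shifted relative to another. They were not tested and are given as a description. H2-DMb1 over H2-Ab1 was 0.831 and 1.196 in KO libraries, against 0.352, 0.394 and 0.414 in WT libraries. The DM beta transcript was thus a larger share of the class II transcripts in KO cells. The DM chains also shifted against each other, with H2-DMa over H2-DMb1 at 0.380 and 0.398 in KO libraries, against 0.7001, 0.563 and 0.643 in WT libraries. H2-Aa over H2-Ab1 was 1.13 and 0.953 in KO libraries, against 1.33, 1.26 and 1.29 in WT libraries, and H2-Eb1 over H2-Ab1 was 0.427 and 0.432 in KO libraries, against 0.543, 0.519 and 0.545 in WT libraries. In each of these ratios the genotypes did not overlap. They did overlap for H2-DMb2 over H2-DMb1, at 0.0585 and 0.104 in KO libraries, against 0.0805, 0.0518 and 0.0869 in WT libraries. Cd74 over the sum of H2-Aa, H2-Ab1 and H2-Eb1 was slightly higher in both KO libraries, at 1.51 and 1.83 in KO libraries, against 1.47, 1.42 and 1.48 in WT libraries.

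**Figure D2:**
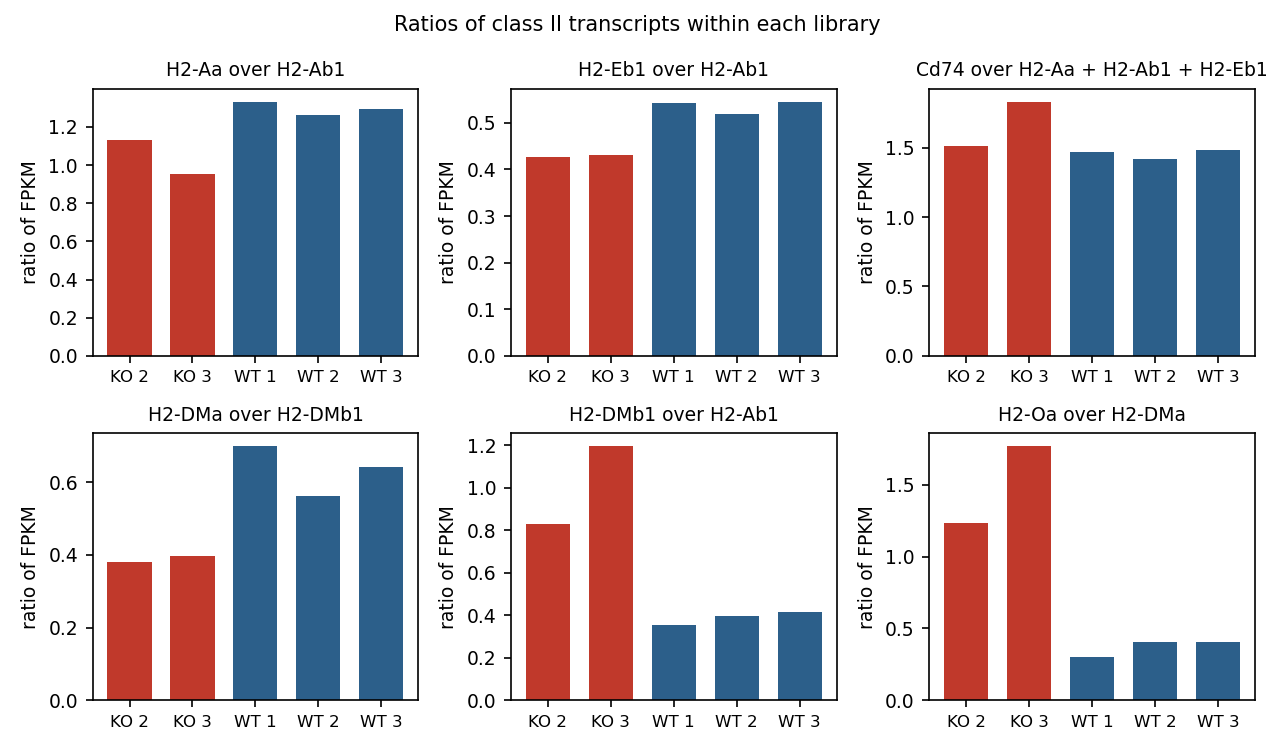
Ratios of FPKM between class II transcripts within each library, KO replicates 2 and 3 in red and WT replicates 1 to 3 in blue, with each axis starting at 0. H2-DMb1 over H2-Ab1 and H2-Oa over H2-DMa are higher in both KO libraries than in every WT library, and H2-DMa over H2-DMb1 is lower.

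Promoters of class II genes are known for the X box, bound by the RFX complex, an adjoining X2 box, bound by CREB, and the Y box, bound by NF-Y, which together recruit Ciita. The windows below show where letters of that kind stand in H2-Aa, H2-Eb1 and H2-DMb1, and in the neighbour H2-DMb2, by RefSeq's promoter table (GRCm38.p6). Each is the gene strand, 5′ to 3′, of the 150 bases before the annotated start: H2-Aa at chr17:34287824-34287973 (minus strand), H2-Eb1 at chr17:34305717-34305866, H2-DMb1 at chr17:34153041-34153190 and H2-DMb2 at chr17:34145099-34145248 (plus strand). Capitals mark AACNGATG (from the X box), TGACGTCA (the CREB element) and CCAAT or its reverse ATTGG (the NF-Y element).
H2-Aa: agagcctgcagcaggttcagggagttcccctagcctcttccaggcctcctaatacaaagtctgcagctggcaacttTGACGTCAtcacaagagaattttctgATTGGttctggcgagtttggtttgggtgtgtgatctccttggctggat
H2-Eb1: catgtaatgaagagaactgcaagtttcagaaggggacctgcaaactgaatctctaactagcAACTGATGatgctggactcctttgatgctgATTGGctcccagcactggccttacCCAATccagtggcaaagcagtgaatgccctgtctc
H2-DMb1: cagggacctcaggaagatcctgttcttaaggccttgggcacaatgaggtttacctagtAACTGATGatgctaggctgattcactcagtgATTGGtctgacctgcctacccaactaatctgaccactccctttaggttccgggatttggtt
H2-DMb2: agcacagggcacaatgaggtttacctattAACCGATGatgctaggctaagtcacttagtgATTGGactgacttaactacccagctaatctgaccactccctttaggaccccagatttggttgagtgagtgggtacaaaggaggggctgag
The 3 motifs were chosen after these windows had been seen, and were searched on both strands of 32851 windows of 300 bases; they do not overlap each other in the windows shown. In H2-Eb1, AACTGATG starts 89 bases before the annotated start and ATTGG 59 bases before it, 30 bases apart. H2-DMb1 holds the same 8 letters at 92 bases and ATTGG at 61, and H2-DMb2 holds AACCGATG at 121 and ATTGG at 90, both pairs 31 bases apart. In H2-Aa, TGACGTCA stands at 74 bases and ATTGG at 48, with 26 bases between their first letters. CCAAT alone was in 37.4% of all windows, AACNGATG in 2.32% and TGACGTCA in 1.79%. AACNGATG followed on the gene strand by ATTGG, with 10 to 40 bases between their first letters, was in 8 windows (0.0244%), and 4 of those belong to H2-Eb1, H2-DMb1, H2-DMb2 and H2-Eb2. Of the other 4, G3bp2 alone is in the expression table, at 31.2 and 32.7 FPKM in KO libraries against 34.5, 32.8 and 33.3 FPKM in WT libraries. The motifs were chosen with the shown windows in view, and the spacing range holds the 30 and 31 bases found there. That H2-Eb1, H2-DMb1 and H2-DMb2 are among the 8 is thus no test of enrichment. A match describes letters and is neither a shown binding site nor a cause. H2-Oa, H2-Ob and 1 of the 2 windows of H2-DMa hold CCAAT, and none of these windows holds either of the other motifs. No window was examined for H2-Ab1, Cd74 or Ciita, so nothing is said of their promoters.

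Genes of the same chromosome 17 cluster did not all move with the members. H2-DMb2, the second DM beta chain, had 2.28 and 2.74 FPKM in KO libraries, against 8.56, 5.42 and 7.95 FPKM in WT libraries, and fell by 1.23 on the log2 scale (± 0.18, SE; limma adjusted p = 0.00364). H2-Oa, the alpha chain of DO, an inhibitor of DM, had 18.3 and 18.5 FPKM in KO libraries, against 22.4, 23.8 and 23.8 FPKM in WT libraries. That is a small difference that does not overlap (log2 change -0.33 ± 0.07; limma adjusted p = 0.0196). H2-Ob, the DO beta chain, was higher in KO cells, at 2.06 and 2.39 FPKM, against 1.28, 0.46 and 0.92 FPKM in WT cells (log2 change 0.80 ± 0.20; limma adjusted p = 0.0317). H2-Eb2, a further beta chain, lay at or below 0.31 FPKM in all 5 libraries and was not tested. H2-Oa over H2-DMa was 1.24 and 1.77 in KO libraries, against 0.301, 0.404 and 0.405 in WT libraries.

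The calls of both DO chains depend on the fit. H2-Oa lost its call in 4 of 12 alternatives, with adjusted p = 0.182 with sex as a covariate, 0.0823 without WT replicate 2, 0.0812 without WT replicate 3 and 0.0529 with a replicate block. H2-Ob lost its call in 6, with adjusted p = 0.241 with sex as a covariate, 0.0793 without KO replicate 2, 0.150 without KO replicate 3, 0.0545 without WT replicate 2, 0.0651 without WT replicate 3 and 0.0527 with 0.1 FPKM added. Without WT replicate 2 or without WT replicate 3, and with sex as a covariate, 1 of these 3 genes was called.

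Within 100 kb of the 5 members on chromosome 17, from 34020792 to 34369492, the table holds 16 other genes, of which 13 were tested. Among those 13, H2-DMb2 and H2-Oa were called lower, H2-Ob and Tap2 were called higher, and 9 were not called, with a median log2 change of -0.13. Over all tested genes 13.0% were called lower and 9.08% higher, with a median of -0.04. Brd2, a bromodomain protein gene that shares ground with H2-DMa, had 52.5 and 62.3 FPKM in KO libraries, against 51.6, 50.9 and 54.0 FPKM in WT libraries (log2 change 0.13; limma adjusted p = 0.353). Between H2-DMb1 and H2-Ob stand 4 class I processing genes, Psmb9, Tap1, Psmb8 and Tap2. Psmb8, an immunoproteasome subunit, had 89.9 and 91.9 FPKM in KO libraries, against 101, 94.6 and 85.9 FPKM in WT libraries, and the groups overlapped (adjusted p = 0.772). Tap1, a subunit of the peptide transporter of the endoplasmic reticulum, had a log2 change of 0.11 (adjusted p = 0.432). Tap2, its partner, was higher, at 72.5 and 73.3 FPKM in KO libraries, against 58.9, 53.4 and 53.1 FPKM in WT libraries (log2 change 0.40 ± 0.08; adjusted p = 0.0102, and 0.0501 without WT replicate 2 and 0.122 with sex as a covariate). Of the genes not called, Psmb9 (adjusted p = 0.0497) and Slc39a7 (0.0446) passed as lower without KO replicate 2, and Col11a2 (0.0494) with no mean-variance trend.

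**Figure D3:**
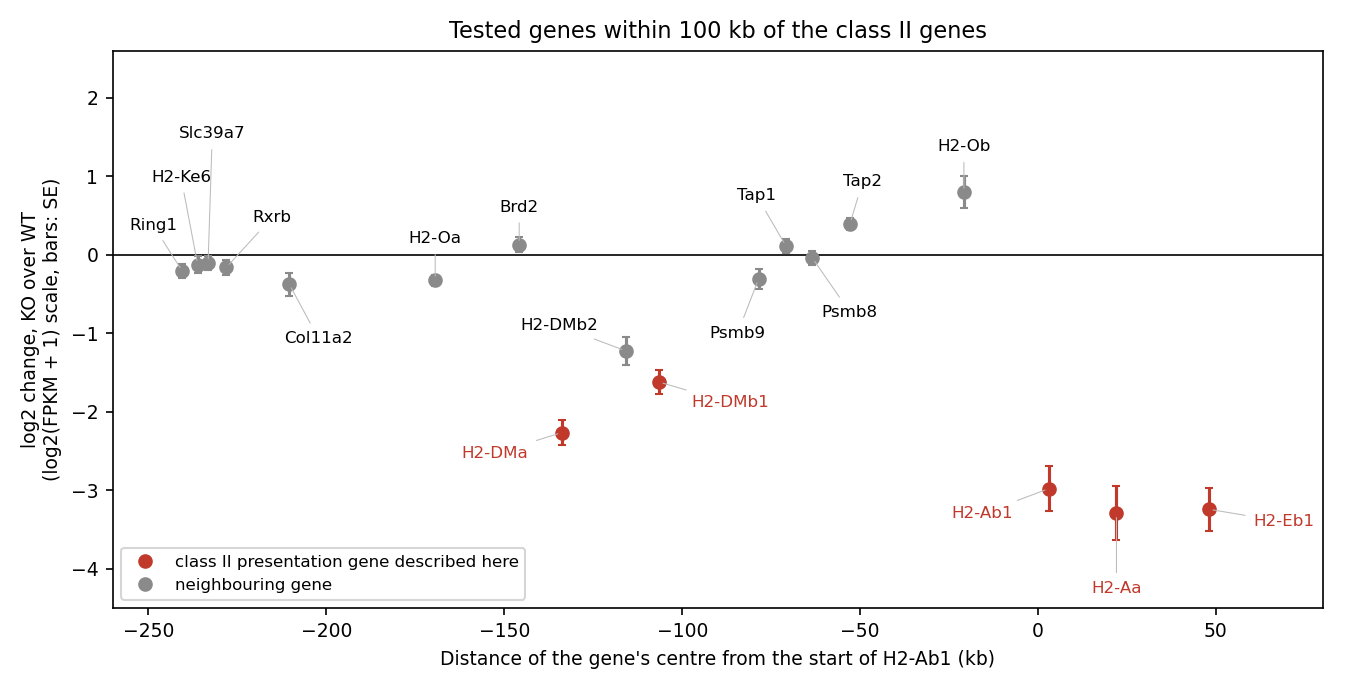
Log2 change of KO over WT (log2(FPKM + 1) scale, bars show the SE) for the tested genes within 100 kb of the chromosome 17 members, by distance of the gene's centre from the start of H2-Ab1 in kb. The 5 members (red) lie between -1.62 and -3.30, H2-DMb2 lies at -1.23, and the other neighbours (grey) between -0.38 and 0.80.

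Among genes that supply peptides to class II or turn it over, 8 of 14 tested fell, none rose, and the median log2 change was -0.37. Ctss, cathepsin S, the protease best known for cutting the invariant chain in myeloid cells, had 225 and 138 FPKM in KO libraries, against 703, 884 and 747 FPKM in WT libraries (log2 change -2.13 ± 0.20; limma adjusted p = 0.000638). The protease genes Ctsb and Lgmn fell by 1.25 (adjusted p = 0.00321) and 1.53 (adjusted p = 0.00706) on the log2 scale. Marchf1, the ubiquitin ligase that takes class II off the surface, had 2.63 and 3.08 FPKM in KO libraries, against 7.27, 5.98 and 6.38 FPKM in WT libraries (log2 change -0.97 ± 0.12; adjusted p = 0.00159). Ctsl, cathepsin L, and Ctsh, cathepsin H, fell by 1.07 (adjusted p = 0.0149) and 0.53 (adjusted p = 0.0156) on the log2 scale, and the change of Ctsl was -0.68 with sex as a covariate. Ctsd, cathepsin D, had a log2 change of 0.09 (adjusted p = 0.658), and the endosomal tetraspanin genes Cd63, Cd9 and Cd82 had log2 changes of 0.30, -0.13 and -0.02 with no call. Without WT replicate 2 there were 5 genes called and with sex as a covariate 4. Lgmn lost its call without KO replicate 3 (adjusted p = 0.0572), as did Ctsl (0.0962, and 0.103 with sex as a covariate), while Cd63 was called higher without it (0.0221). Ctsh lost its call without WT replicate 2 (0.0557), without WT replicate 3 (0.0539) and with sex as a covariate (0.143).

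Genes that induce Ciita or bind class II promoters were mixed: 9 of 19 tested fell, 1 rose and 9 did not pass, with a median log2 change of -0.18. Irf8, an interferon regulatory factor of monocytes and dendritic cells, had 4.13 and 2.57 FPKM in KO libraries, against 13.6, 16.9 and 13.6 FPKM in WT libraries (log2 change -1.87 ± 0.17; limma adjusted p = 0.000585). The interferon gamma receptor fell in both chains, Ifngr1 to 28.6 and 27.8 FPKM in KO libraries, against 70.4, 61.6 and 60.6 FPKM in WT libraries (log2 change -1.15; adjusted p = 0.00035). Ifngr2 fell by 0.62 on the log2 scale (adjusted p = 0.0024), and Spi1, the myeloid factor PU.1, by 0.57 (adjusted p = 0.00202). Socs1, an inhibitor of interferon gamma signalling, was higher, at 104 and 95.4 FPKM in KO libraries, against 63.7, 56.6 and 61.6 FPKM in WT libraries (log2 change 0.71 ± 0.08; adjusted p = 0.0013). The kinase genes Jak1 and Jak2, which carry that signal, did not pass, with log2 changes of 0.14 and 0.07 (adjusted p = 0.191 and 0.694). Irf4, a further interferon regulatory factor, had 0.64 and 0.51 FPKM in KO libraries, against 1.84, 1.46 and 1.48 FPKM in WT libraries. It passed the filter through the WT libraries alone (log2 change -0.72, or -1.33 with 0.1 FPKM added; adjusted p = 0.0130) and lost its call without KO replicate 3 (adjusted p = 0.0669), where 6 genes of the list were called.

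The promoter-binding subunits themselves had smaller log2 changes than any member. Of the RFX complex, Rfx5 had 4.98 and 5.71 FPKM in KO libraries, against 4.94, 4.18 and 4.27 FPKM in WT libraries (log2 change 0.22; limma adjusted p = 0.224), and Rfxank had a log2 change of 0.07 (adjusted p = 0.653). Rfxap had a log2 change of -0.41 (adjusted p = 0.0460), a call lost in 10 of 12 alternatives with adjusted p between 0.0509 and 0.151. Of NF-Y, Nfya and Nfyb had log2 changes of -0.16 and 0.06 (adjusted p = 0.157 and 0.776). Nfyc had a log2 change of -0.31 (adjusted p = 0.0320), lost in 9 of 12 alternatives with adjusted p between 0.0515 and 0.125.

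In the class I presentation route, which shows peptides from the cytosol, 6 of 21 tested genes fell and 2 rose, with a median log2 change of -0.15. Nlrc5, the class I counterpart of Ciita, had 0.38 and 0.38 FPKM in KO libraries, against 1.26, 1.35 and 1.30 FPKM in WT libraries, and passed the filter through the WT libraries alone. Its log2 change was -0.74 ± 0.14 (limma adjusted p = 0.00943, and 0.0692 with sex as a covariate), or -1.55 with 0.1 FPKM added. B2m, the light chain of class I, had 753 and 719 FPKM in KO libraries, against 1081, 1015 and 896 FPKM in WT libraries. The KO mean of B2m was thus 0.738 of the WT mean, beside 0.109 for H2-Aa (B2m log2 change -0.43; adjusted p = 0.0245). H2-D1, a class I heavy chain, had 740 and 712 FPKM in KO libraries, against 737, 769 and 739 FPKM in WT libraries, with overlapping groups (adjusted p = 0.744). H2-K1, the other main heavy chain, had a log2 change of -0.31 (adjusted p = 0.0319) and the non-classical H2-T23 one of 0.30 (adjusted p = 0.0211). The heavy chain genes H2-Q7 and H2-M3 fell by 0.80 (adjusted p = 0.0419) and 0.52 (adjusted p = 0.0161) on the log2 scale. H2-Q7 was low, at 0.63 and 1.63 FPKM in KO libraries, against 3.08, 2.64 and 2.15 FPKM in WT libraries. Psmb10, an immunoproteasome subunit, fell by 0.86 on the log2 scale (adjusted p = 0.00814).

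Of the 8 called class I genes, 7 lost their call in at least 1 of the 12 alternatives, and Psmb10 did not. Without WT replicate 1, 2 or 3 the list had 4, 2 and 5 called genes, with a replicate block 4 and with sex as a covariate 1. B2m lost its call without KO replicate 3 (adjusted p = 0.0702), WT replicate 1 (0.0762) or WT replicate 2 (0.0940), with a replicate block (0.114) and with sex as a covariate (0.0550). H2-K1 lost its call in 9 alternatives, among them the fits without KO replicate 3 (0.0599), WT replicate 1 (0.0771), WT replicate 2 (0.127) or WT replicate 3 (0.111). H2-T23 lost its call in 5, among them those without WT replicate 1 (0.0652), 2 (0.0836) or 3 (0.103). H2-Q7 and H2-M3 lost theirs without WT replicate 2 (0.0985 and 0.0558) or 3 (0.0539 and 0.0572), among other fits.

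Costimulatory genes, which act beside class II on the surface, gave 4 lower of 8 tested and none higher, with a median log2 change of -0.49. Cd83, which holds class II at the surface, had 1.21 and 0.77 FPKM in KO libraries, against 3.84, 5.15 and 3.58 FPKM in WT libraries (log2 change -1.38 ± 0.17; limma adjusted p = 0.00178). Ccr7, a homing receptor of mature dendritic cells, fell by 1.14 on the log2 scale (adjusted p = 0.00898), or by 1.82 with 0.1 FPKM added. Cd80 and Cd86, the ligands of CD28, fell by 0.67 (adjusted p = 0.0088) and 0.68 (adjusted p = 0.0437), and Cd86 lost its call in 8 of 12 alternatives with adjusted p between 0.0521 and 0.141. Among those 8 were the fits without KO replicate 2 (0.141), KO replicate 3 (0.115), WT replicate 1 (0.0636) or WT replicate 3 (0.0681), while with sex as a covariate its change was -1.04 and called. The inhibitory ligand Cd274 had 27.0 and 36.9 FPKM in KO libraries, against 32.0, 34.7 and 36.6 FPKM in WT libraries, and did not pass (adjusted p = 0.571).

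**Figure D4:**
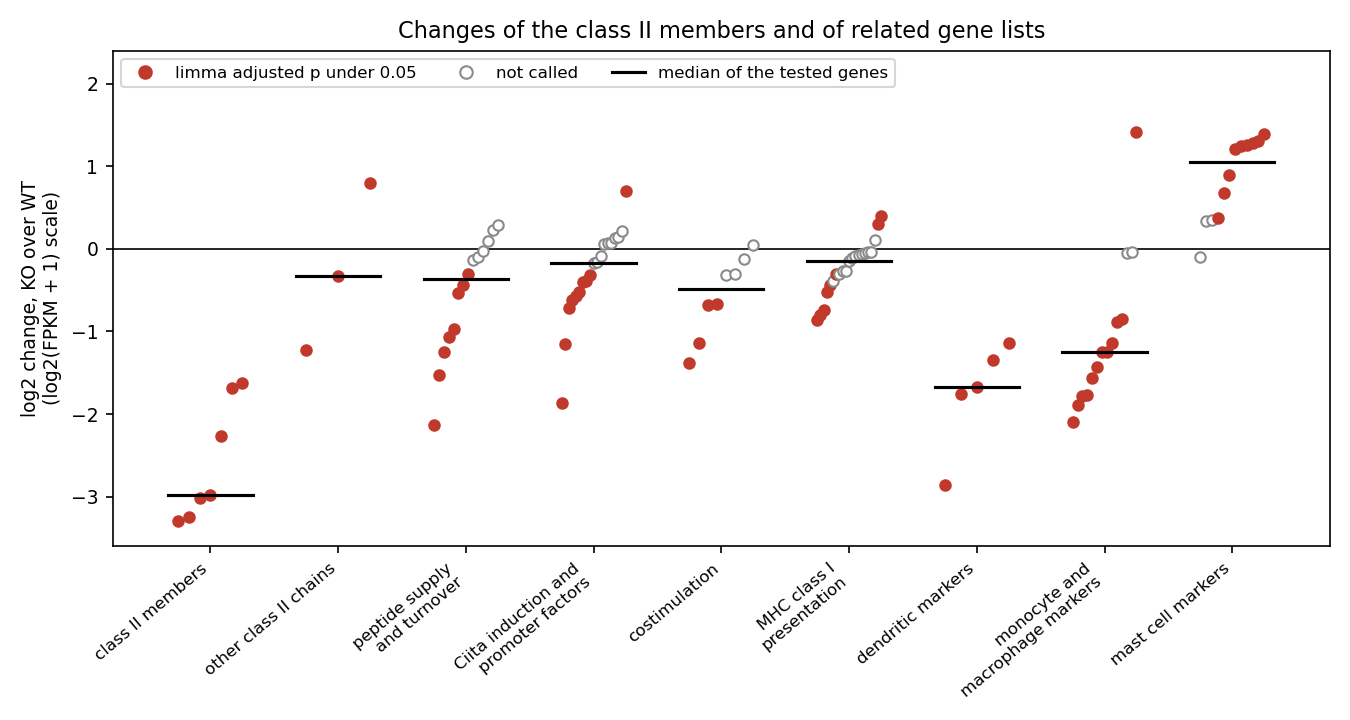
Log2 change of KO over WT (log2(FPKM + 1) scale) for each tested gene of the class II members, the related lists and 3 marker lists, filled where the limma adjusted p was under 0.05, with a line at each median. The members have a median of -2.98, the class I list -0.15, the monocyte and macrophage markers -1.25 and the mast cell markers 1.05.

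Most tested markers of the cell types that carry class II were lower in KO cells, as the members were, but not all. Their part in the result was not tested. Of the 14 monocyte and macrophage markers, 11 were lower, 1 higher and 2 not called, with a median log2 change of -1.25 and summed levels of 2781 to 2971 FPKM in KO libraries, against 6463 to 8360 FPKM in WT libraries. Lyz2, lysozyme, had 1587 and 1311 FPKM in KO libraries, against 6477, 5178 and 4523 FPKM in WT libraries, and made up most of each sum in WT cells. Without it the other 13 markers summed to 1384 and 1470 FPKM in KO libraries, against 1883, 1915 and 1941 FPKM in WT libraries. Adgre1, which encodes F4/80, had 91.2 and 106 FPKM in KO libraries, against 88.8, 113 and 106 FPKM in WT libraries. Ly6c2, likewise not called, had 934 and 1025 FPKM in KO libraries, against 983, 952 and 1078 FPKM in WT libraries. The marker called higher was Cx3cr1, at 26.1 and 24.5 FPKM in KO libraries, against 9.26, 7.91 and 9.51 FPKM in WT libraries (log2 change 1.41; limma adjusted p = 0.00032). All 5 tested dendritic cell markers of 11 listed were lower, with a median of -1.67 and summed levels of 27.3 to 49.8 FPKM in KO libraries, against 162 to 184 FPKM in WT libraries. Flt3 and Zbtb46, which mark conventional dendritic cells and their progenitors, and Xcr1, Clec9a and Cd209a, found on dendritic subsets, were under 1 FPKM in every library. Itgax, which encodes CD11c, had 8.82 and 6.41 FPKM in KO libraries, against 20.3, 31.2 and 28.3 FPKM in WT libraries. The dendritic list shares Ccr7 with the costimulatory one. Of 10 B cell markers, 5 were not analysed here, Cd79a, Cd22 and Vpreb1 were under 1 FPKM throughout, Blnk was lower and Cd79b was not called. Mast cell markers went the other way, 9 of 12 higher and none lower with a median of 1.05 and sums of 28580 to 32750 FPKM in KO libraries, against 12160 to 13940 FPKM in WT libraries. Of the 6 basophil markers 4 were higher, with a median of 0.84, and Fcer1a among them is also a listed mast cell marker. The basophil protease genes Mcpt8 and Prss34 were not called, with log2 changes of -0.22 and -0.06. Of the 8 eosinophil markers 1 was higher, Ccr3, and the median of the 8 was 0.20. Ccr3 lost its call without WT replicate 2 (limma adjusted p = 0.065) and with no filter (0.052). Ear2 was called lower without WT replicate 1 (limma adjusted p = 0.015).

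Set against the 19 tested monocyte, macrophage and dendritic markers within each library, the members differed. The ratio was lower in both KO libraries than in every WT library for 19 markers with H2-Eb1, 18 with H2-Aa, Cd74 and Ciita, 17 with H2-Ab1 and 15 with H2-DMa, and the remaining ratios overlapped. With H2-DMb1 it was lower for 7, higher in both KO libraries for 4 (Batf3, Mgl2, Csf1r and Trem2) and overlapped for 8. No share over all tested genes stands beside these counts. Genes among the most lowered have lower ratios to most genes. For Adgre1, Ly6c2 and Cx3cr1, which were not called lower, that outcome was given in advance. Mgl2 fell most of the 19 markers (log2 change -2.86), yet by less than H2-Aa, H2-Ab1, H2-Eb1 and Cd74. For these members, ratios that are lower on average thus follow from the changes already given. What the counts owe to this was not tested. H2-DMb1 over Csf1r, the receptor of macrophage colony-stimulating factor, was 1.267 and 1.034 in KO libraries, against 1.01, 1.031 and 1.008 in WT libraries. KO replicate 3 was thus nearly level with WT replicate 2. H2-DMb1 over Lyz2 was 0.0246 and 0.02004 in KO libraries, against 0.0164, 0.0202 and 0.0202 in WT libraries. Cd74 over Lyz2 was 0.114 and 0.0732 in KO libraries, against 0.197, 0.202 and 0.206 in WT libraries. Cd74 over Csf1r was 5.90 and 3.78 in KO libraries, against 12.1, 10.3 and 10.3 in WT libraries. For Cd74 over Itgax the ratios were 20.6 and 15.0 in KO libraries, against 63.1, 33.6 and 32.9 in WT libraries. The exception for Cd74 was Mgl2, a C-type lectin of dendritic cells and macrophages, for which the ratio was 9.10 and 11.3 in KO libraries, against 13.4, 10.4 and 8.69 in WT libraries. Mgl2 itself had 19.9 and 8.48 FPKM in KO libraries, against 95.6, 100 and 107 FPKM in WT libraries (log2 change -2.86 ± 0.29; limma adjusted p = 0.000782).

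The genes whose profile over the 5 libraries was most like the mean of the members, by the Euclidean distance of centred log2(FPKM + 1) values, were Saa3, Fcrls, Clec4a1, Pld4, Olfm1, Tgfbi, Clec4b1 and Pid1, at distances from 0.347 to 0.526. The members themselves lay at 0.439 (H2-DMa) to 1.08 (H2-DMb1) from their own mean, since they differ in the size of their change. Saa3, an acute-phase serum amyloid, had 26.9 and 19.3 FPKM in KO libraries, against 199, 156 and 144 FPKM in WT libraries. Tgfbi, a matrix protein, had 32.5 and 24.4 FPKM in KO libraries, against 155, 135 and 128 FPKM in WT libraries. Pld4, an endolysosomal nuclease, had 14.4 and 11.9 FPKM in KO libraries, against 80.9, 74.5 and 69.8 FPKM in WT libraries. In all 3 the KO libraries lay far below the WT libraries with replicate 1 the highest of WT, as in the members. Fcrls, a scavenger receptor related to Fc receptors, had its highest WT level in replicate 2 instead, at 3.63 and 1.75 FPKM in KO libraries, against 17.5, 22.9 and 17.7 FPKM in WT libraries. Olfm1 and Clec4b1 also had their highest WT level in replicate 2, at 31.6 and 18.5 FPKM. The likeness was chosen from these same values and is a description over 5 libraries.

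**Figure D5:**
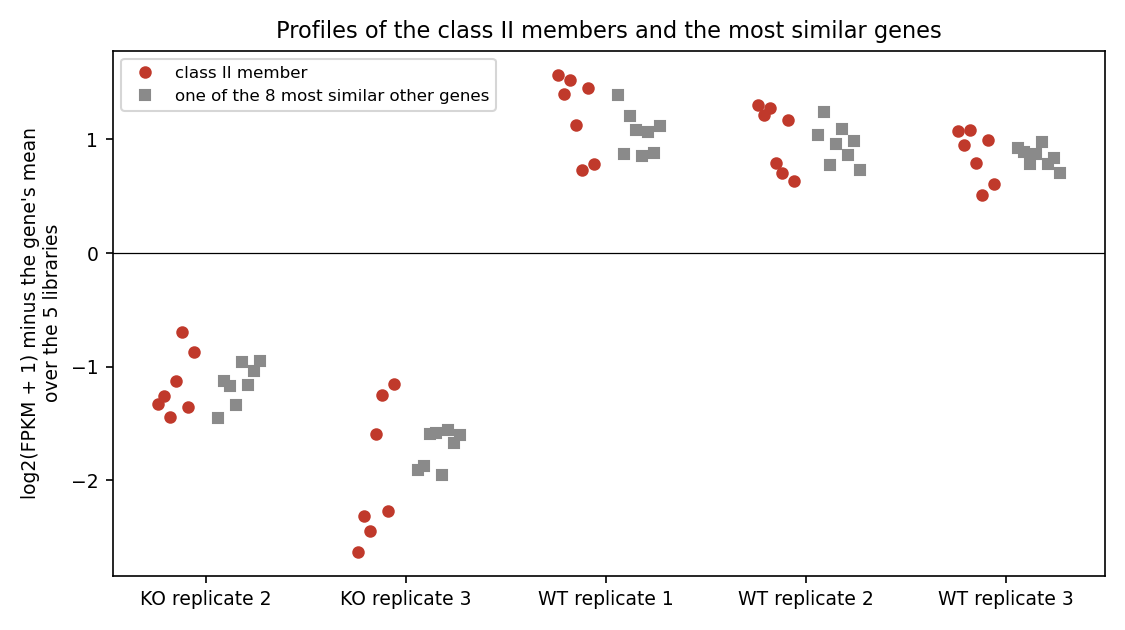
Log2(FPKM + 1) minus the gene's own mean over the 5 libraries, for the 7 members (red circles) and the 8 most similar other genes (grey squares), by library. On average over the members the values are -1.15 and -1.95 in KO replicates 2 and 3, against 1.23, 1.02 and 0.86 in WT replicates 1, 2 and 3.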

How the data were processed

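Bone marrow cells of Dnmt3a knockout and WT mice were cultured with IL3 and SCF, and mRNA was selected with oligo(dT) for the libraries, per the labels' protocols. HISAT, edgeR, StringTie 1.2.1 and the build mm10 are named, without their roles, per the submitters' processing notes. For settings, gene annotation and strand handling, the sources used here give nothing. The labels call the knockout also a knockdown in 1 field.

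The authors deposited FPKM per gene and library, a signed fold given as a score (the ratio of group means) and p-values with their adjusted form. Only FPKM were tested here. Of 15139 rows, 14639 had a gene number, and 14603 of these matched GRCm38.p6, which gave positions. Date-like symbols were restored from the gene number in 23 rows. FPKM hold no read totals, so no counting interval can be given.

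Genes with at least 1 FPKM in at least 2 libraries were tested with limma 3.58.1 in R 4.3.3 on log2(FPKM + 1). The fit had genotype as its single term, a trend of variance on the mean, empirical Bayes moderation, 3 residual degrees of freedom, two-sided tests and Benjamini-Hochberg adjustment over 11365 genes. The procedure was first tested on simulated data. Log2 changes are KO over WT and understate the change of low genes. Lists are described by counts and medians, with no test of the list.

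Named were all members; in each list up to 6 called genes with the largest change and up to 4 uncalled genes of highest level; the 8 genes of most similar profile; tested genes within 100 kb of a chromosome 17 member; and Dnmt3a and Xist. In addition 7 genes (the remaining RFX and NF-Y subunits, H2-K1 and H2-T23) were named after their values were seen. So were Cx3cr1, G3bp2, H2-Eb2 and the markers under 1 FPKM. The members and lists were chosen with earlier results of these data known.

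Alternatives were other scalings, a pseudocount of 0.1, no filter, no trend, sex as a covariate, the replicate number as a block, and each library left out in turn. Promoter windows are RefSeq's, 250 bases before to 50 after each start.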

Additional observations from a re-analysis of the deposited data

How the results depend on the processing

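All 7 members were called lower in each of the 12 alternatives, with log2 changes from -3.95 to -2.64 for H2-Aa and from -1.90 to -1.35 for H2-DMb1 and adjusted p values of at most 0.00574. Leaving out each library in turn gave a median member change between -3.47 and -2.45, and counts between 1623 and 2659 genes called, 679 and 978 higher, 944 and 1681 lower. Over the same fits, the counts of called genes lay between 1 and 3 for the other class II chains, 5 and 9 for peptide supply, 6 and 9 for Ciita induction and promoter factors, and 2 and 9 for class I. With sex as a covariate, where WT replicate 1 alone stands for WT, 1312 genes were called, 520 higher and 792 lower, with 1 of the other class II chains, 4 of peptide supply and 1 of class I. With the replicate block, 872 genes were called higher and 1186 lower, and 4 of class I. Replicate 1 is in WT alone, so the block gives the same log2 changes as leaving out WT replicate 1 (-3.17 for H2-Aa in both). Calls lost in both fits are therefore not separate evidence. The block is a label only: same-numbered libraries had correlations of -0.029 and 0.099, over 2 pairs. Median-of-ratios scaling gave 1188 higher and 1205 lower. Of 99 other genes named or eligible, 74 kept their side of the threshold in all 12 alternatives, 25 did not, and none turned direction past it. Cx3cr1 and G3bp2 were not among these 99. Where a call was lost, the cause was not tested; a fit without a library, or with sex as a covariate, leaves fewer residual degrees of freedom.

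The data hold 2 KO libraries, unknown depth, a sex difference inside WT and otherwise unknown animals of origin. Levels under 1 FPKM, as for Ciita in KO cells, are imprecise to an unknown degree.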
